A study of Mus musculus with 4 samples.

Results

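Neuronal RNA-binding and splicing regulators were followed through 10 genes of 5 families in neural precursor cells of the mouse telencephalon. The genes were Elavl2, Elavl3 and Elavl4, Celf3 and Celf4, Rbfox1 and Rbfox2, Nova1, and Ptbp1 and Ptbp2. Every probe set (a group of short probes for 1 transcript) whose platform annotation names 1 of these genes and no other was taken, which gave 30 of the 45037 probe sets that are not controls. All 30 passed the filter on low signal, which takes the mean over all arrays, and were tested. The rule uses gene names, and the genes were proposed with earlier results of these data known.

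Total RNA of cultured neuroepithelial cells from ICR mouse embryos was hybridised to 4 Affymetrix arrays. The cells of 2 arrays were taken at embryonic day 11.5 (E11.5) and kept in culture for 1 day, and those of the other 2 at embryonic day 14.5 (E14.5) and kept for 4 days. Both groups grew on polyornithine and fibronectin in N2 medium with 10 ng/ml basic FGF, and no genetic change or other agent is named. Age at dissection and time in culture differ together between the groups and cannot be told apart. The series title names genes that restrict astrocyte formation as its question, and the RNA regulators were read here in the same comparison of E14.5 with E11.5. The labels do not say whether arrays of a group came from separate cultures or embryos, and a p-value here speaks for the spread of these 4 arrays alone, whose source may be technical.

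RNA-binding proteins decide which exons a messenger RNA keeps and how long it lasts. The Hu proteins (Elavl2, Elavl3 and Elavl4) bind U-rich stretches of messenger RNAs in young neurons and are among the earliest proteins of neuronal commitment. Celf, Rbfox and Nova proteins bind short motifs beside exons and switch splicing toward neuronal forms. Ptbp1 holds neuronal exons back in dividing precursors, and its relative Ptbp2 takes over as neurons form, in part because Ptbp1 makes the Ptbp2 transcript skip an exon and decay.

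The members fell together at E14.5 with a few exceptions. Of 30 probe sets 22 were lower and 1 was higher at an adjusted p under 0.05 in limma, and 7 were not called. Among all 27022 probe sets tested 12.6% were lower and 11.1% were higher, 23.7% in all. By the brightest probe set of each gene, 8 of 10 genes were lower (Elavl2, Elavl3, Elavl4, Celf3, Celf4, Rbfox1, Rbfox2 and Ptbp1), Nova1 was higher and Ptbp2 did not pass. Of all 12952 genes read that way 13.6% were lower and 14.3% higher, together 27.8%. The median log2 difference (E14.5 minus E11.5) came to -1.17 over the member probe sets and -0.01 over all probe sets tested. Both E14.5 arrays lay below both E11.5 arrays at 24 of the 30 member probe sets, against 31.9% of all.

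Signals below are array intensities brought to 1 common trimmed mean, and log2 differences were taken after adding a pseudocount of 12.8, which shrinks the differences of dim probe sets. All errors are standard errors of the fit with n = 2 arrays per group. Since all arrays share 1 trimmed mean, higher and lower are meant relative to the rest of the array. These are bulk cultures, in which fewer cells of a type and less RNA per cell cannot be told apart.

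**Figure D1:**
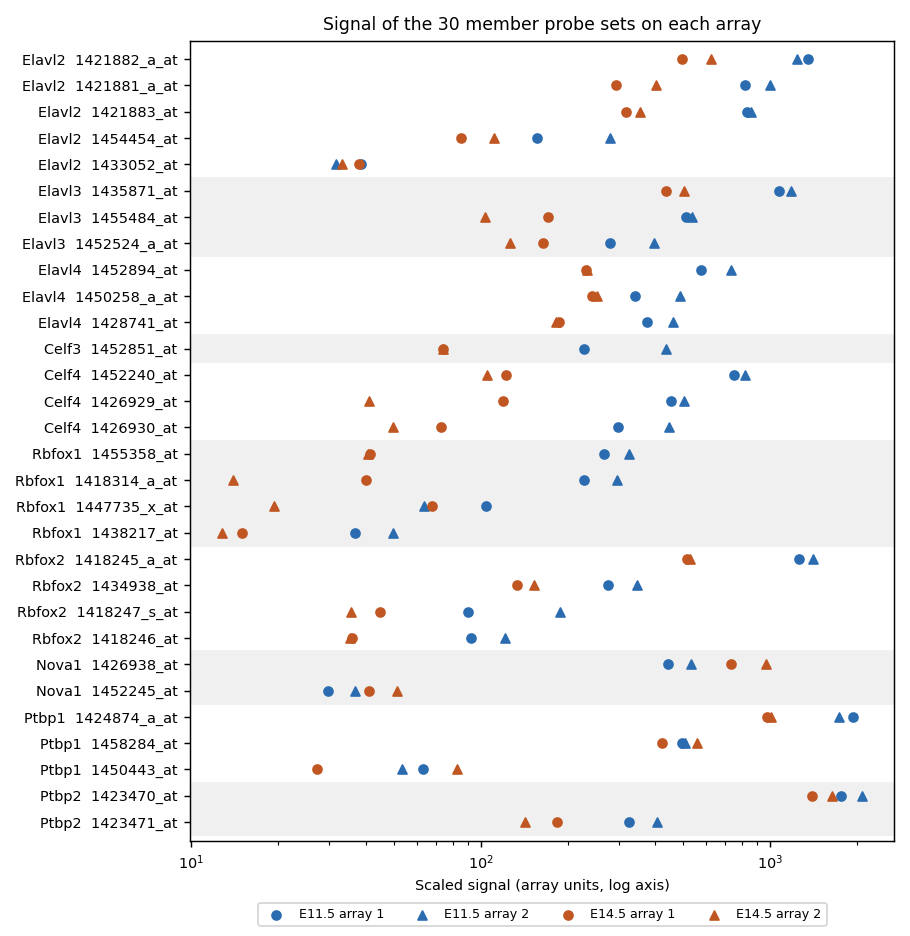
Scaled signal (log axis) of each of the 30 member probe sets on the 4 arrays, with E11.5 in blue, E14.5 in orange, circles for array 1 and triangles for array 2, and grey bands separating genes. The orange points lie left of the blue ones for 24 probe sets, and right of them for the 2 probe sets of Nova1.

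Promoter sequence is shown for Elavl3, which fell at all of its probe sets, for Nova1, which rose, and for Ptbp1 and Ptbp2, whose probe sets disagreed. They are the 4 members with a single start in the RefSeq promoter table (build GRCm38.p6); 8 of the 10 members were matched there, all but Celf4 and Rbfox2. Each line gives the 250 bases before the start, 5′ to 3′ on the strand of the gene. Capitals mark any match, on either strand, to CAGCTG (an E-box form that proneural factors bind), GGGCGG (the GC box), CCAAT or TATAAA.

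Elavl3, chr9:22052024-22052273 (minus strand): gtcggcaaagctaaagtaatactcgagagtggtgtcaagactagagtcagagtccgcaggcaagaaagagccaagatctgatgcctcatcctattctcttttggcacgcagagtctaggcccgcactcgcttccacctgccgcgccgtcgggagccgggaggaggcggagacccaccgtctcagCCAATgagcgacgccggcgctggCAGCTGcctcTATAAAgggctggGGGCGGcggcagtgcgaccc
Nova1, chr12:46818768-46819017 (minus strand): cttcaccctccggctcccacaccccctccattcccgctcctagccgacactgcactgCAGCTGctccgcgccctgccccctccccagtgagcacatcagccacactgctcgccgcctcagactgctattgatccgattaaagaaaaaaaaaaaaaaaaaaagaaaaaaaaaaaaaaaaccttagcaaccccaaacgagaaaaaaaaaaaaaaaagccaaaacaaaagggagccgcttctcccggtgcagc
Ptbp1, chr10:79854182-79854431 (plus strand): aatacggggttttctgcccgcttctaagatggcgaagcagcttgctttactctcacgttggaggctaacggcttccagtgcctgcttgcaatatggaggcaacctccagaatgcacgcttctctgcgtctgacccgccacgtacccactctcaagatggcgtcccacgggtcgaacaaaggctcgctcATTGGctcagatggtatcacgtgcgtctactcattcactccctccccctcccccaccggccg
Ptbp2, chr3:119783389-119783638 (minus strand): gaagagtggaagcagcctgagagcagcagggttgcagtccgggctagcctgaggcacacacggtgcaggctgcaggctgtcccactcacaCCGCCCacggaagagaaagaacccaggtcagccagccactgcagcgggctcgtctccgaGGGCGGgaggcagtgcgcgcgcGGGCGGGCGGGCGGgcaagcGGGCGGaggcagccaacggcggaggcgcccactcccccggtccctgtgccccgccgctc

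The Elavl3 window held 1 match to each of the 4 motifs, with first bases at -66 (CCAAT), -43 (CAGCTG), -33 (TATAAA) and -20 (GGGCGG) before the start. That of Nova1 held 1 CAGCTG and none of the others. The Ptbp1 window held 1 CCAAT match, and that of Ptbp2 held 6 GGGCGG matches, of which 3 overlap each other, and no other motif. Among all 32851 windows of the same length, 13.0% held CAGCTG, 32.7% GGGCGG, 33.8% CCAAT and 12.4% TATAAA. No binding was measured, so the matches describe these letters only. CpG pairs numbered 20 in Elavl3, 11 in Nova1, 17 in Ptbp1 and 23 in Ptbp2, against a median of 6 over all windows.

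The Hu genes fell at 10 of their 11 probe sets. Elavl3, a protein of postmitotic neurons, had scaled signals of 1070 and 1181 at E11.5 and 436 and 502 at E14.5 at its brightest probe set (1435871_at). Its log2 difference was -1.24 ± 0.14 (adjusted p = 0.000187). The groups did not overlap, and both of the other Elavl3 probe sets moved the same way. The probe set 1455484_at went from 512 and 537 to 170 and 103, a difference of -1.88 ± 0.22 (adjusted p = 0.000199). The third, 1452524_a_at, fell by 1.14 on the log2 scale.

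Elavl4 (HuD), known for stabilising the messenger RNA of the growth cone protein Gap43, fell at all 3 of its probe sets. At 1452894_at its scaled signals were 576 and 732 at E11.5 and 231 and 232 at E14.5, a log2 difference of -1.44 ± 0.16 (adjusted p = 0.000192). The E14.5 arrays were nearly equal, and both were well below E11.5. At 1428741_at the difference was -1.12 ± 0.17. At 1450258_a_at it was -0.69 ± 0.19 (adjusted p = 0.0247), and this call was lost without E11.5 array 2 (-0.44), without the filter and without the variance trend.

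Elavl2 (HuB), a Hu protein of early neurons that some non-neural tissues also make, fell at 4 of 5 probe sets. The brightest, 1421882_a_at, had scaled signals of 1346 and 1236 at E11.5 and 495 and 624 at E14.5, a log2 difference of -1.20 ± 0.15 (adjusted p = 0.000331). At 1421881_a_at the values were 821 and 997 against 293 and 403 (-1.36 ± 0.18), and at 1421883_at they were 829 and 859 against 318 and 356 (-1.30 ± 0.14). In all 3 the groups stood apart. At 1454454_at the difference of -1.01 ± 0.27 lost its call without E11.5 array 2 (-0.62), without the filter and without the variance trend. The dimmest, 1433052_at, read 38.7 and 31.7 at E11.5 and 37.8 and 33.0 at E14.5, so the groups overlapped (0.01 ± 0.32, 95% interval -0.71 to 0.73).

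**Figure D2:**
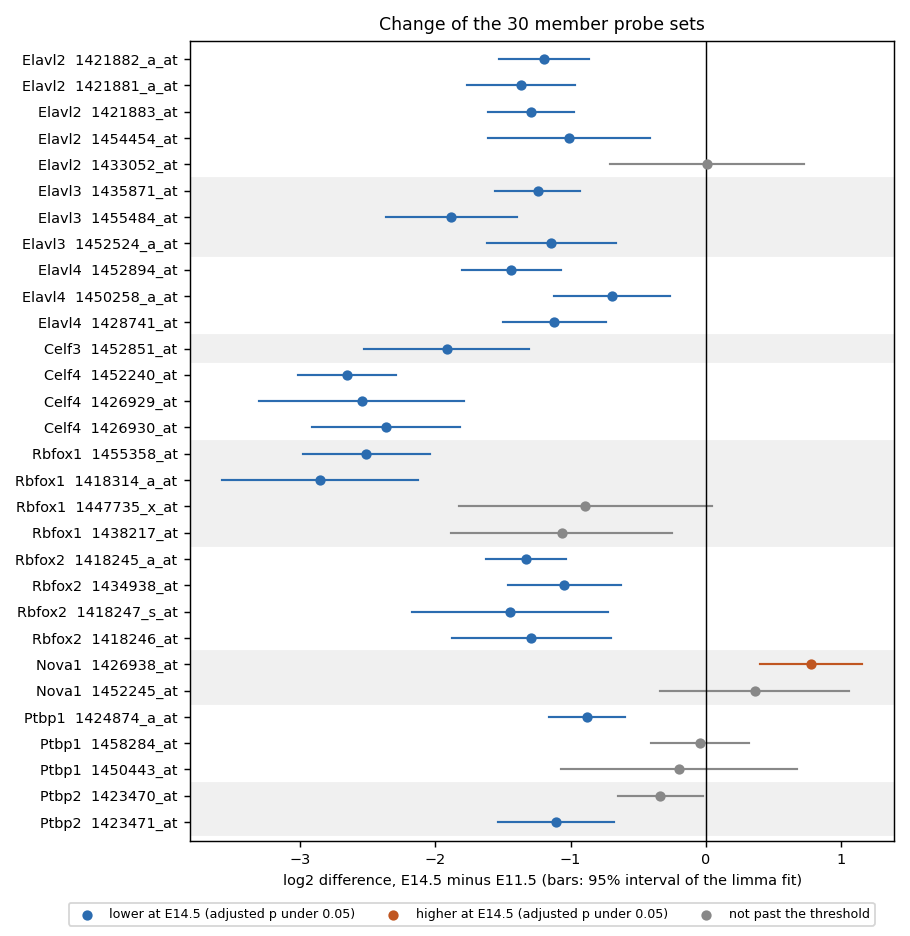
Log2 difference (E14.5 minus E11.5) of the 30 member probe sets with the 95% interval of the limma fit, blue where lower, orange where higher and grey where the threshold was not passed. Celf4 and the 2 brightest Rbfox1 probe sets lie farthest left, between -2.85 and -2.36, and 1 probe set of Nova1 lies right of 0 in orange.

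Among the Celf genes, which encode splicing factors and regulators of messenger RNA decay, both members fell at each of their probe sets. Celf4, a neuron-enriched protein of excitatory cells, had scaled signals of 748 and 815 at E11.5 and 122 and 105 at E14.5 at 1452240_at. The mean at E11.5 was 6.88 times that at E14.5, and the log2 difference was -2.65 ± 0.16 (adjusted p = 3.9e-06). No E14.5 array came near an E11.5 array. The other Celf4 probe sets gave -2.54 ± 0.34 (1426929_at, 455 and 505 against 120 and 41.0) and -2.36 ± 0.25 (1426930_at, 297 and 447 against 72.8 and 49.8). The 3 probe sets of Celf4 thus gave values close to each other. Celf3, another neuron-enriched member, has 1 probe set. It read 227 and 437 at E11.5 and 74.3 and 74.2 at E14.5, a difference of -1.92 ± 0.27 (adjusted p = 0.000736), with E11.5 arrays far from each other but both above E14.5.

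Rbfox1, a splicing factor of differentiated neurons and muscle, fell at its 2 brightest probe sets. At 1455358_at its scaled signals were 266 and 325 at E11.5 and 41.6 and 40.8 at E14.5, a log2 difference of -2.51 ± 0.21 (adjusted p = 2.77e-05). At 1418314_a_at they were 227 and 296 against 40.3 and 13.9 (-2.85 ± 0.32, adjusted p = 0.000183), and the last of these values is close to the pseudocount. The groups did not overlap at either. The dimmer 1438217_at read 36.8 and 49.8 against 14.9 and 12.8, and did not pass (-1.07 ± 0.37, adjusted p = 0.0608), though it passed without the variance trend. At E14.5 the means of 1418314_a_at (27.08) and 1438217_at (13.85) were under the filter of 27.3. Both were thus tested only through E11.5, and the first is counted among the lower member probe sets. At 1447735_x_at, whose suffix marks probes that may bind other transcripts too, the groups overlapped (104 and 63.4 against 68.0 and 19.3). Its difference of -0.89 ± 0.42 (adjusted p = 0.162) passed with the replicate number as a block, without E11.5 array 2 (-1.19) and without E14.5 array 1 (-1.55), but it shrank to -0.58 without E11.5 array 1 and to -0.22 without E14.5 array 2 (adjusted p = 0.713).

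Rbfox2, a wider expressed relative that is also present in dividing cells, fell at all 4 of its probe sets. The brightest, 1418245_a_at, had scaled signals of 1257 and 1411 at E11.5 and 515 and 529 at E14.5, a log2 difference of -1.33 ± 0.13 (adjusted p = 8.53e-05). At 1434938_at the values were 276 and 346 against 133 and 153 (-1.05 ± 0.19). The arrays of each group lay close together at both, and the groups stood apart. The dimmer 1418247_s_at (-1.45 ± 0.32) and 1418246_at (-1.29 ± 0.26) also passed. Both lost their calls without E11.5 array 2, where the differences were -0.97 and -1.11.

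Nova1, an antigen of an autoimmune movement disorder and a splicing factor of ventral brain and spinal neurons, was the member that rose. At 1426938_at its scaled signals were 445 and 531 at E11.5 and 733 and 969 at E14.5, a log2 difference of 0.78 ± 0.17 (adjusted p = 0.00792). Both E14.5 arrays were above both E11.5 arrays, as for 30.1% of all probe sets tested. The call was lost without the variance trend (adjusted p = 0.0692), and the difference ran from 0.58 to 0.98 over the 11 alternative settings. The second probe set, 1452245_at, was dim, with 29.7 and 36.8 at E11.5 and 41.2 and 51.5 at E14.5. Its groups stood apart in the same direction, and its difference of 0.36 ± 0.31 did not pass (adjusted p = 0.463).

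Ptbp1, the repressor of neuronal exons, fell at 1 of 3 probe sets. The brightest, 1424874_a_at, had scaled signals of 1938 and 1733 at E11.5 and 975 and 1007 at E14.5, a log2 difference of -0.88 ± 0.13 (adjusted p = 0.000786). This probe set kept its call under all 11 alternative settings, with differences from -0.96 to -0.80. The other Ptbp1 probe sets had overlapping groups. At 1458284_at the values were 495 and 507 against 424 and 557 (-0.04 ± 0.16, 95% interval -0.41 to 0.32). At 1450443_at they were 62.9 and 53.5 against 27.2 and 82.8 (-0.20 ± 0.39), with the E14.5 arrays on either side of both E11.5 arrays. Without E14.5 array 1 the sign turned at both (0.15 and 0.43).

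Ptbp2, the neural relative of Ptbp1, also gave different answers at its probe sets. At the brighter, 1423470_at, the scaled signals were 1756 and 2081 at E11.5 and 1391 and 1639 at E14.5. The groups did not overlap, but the log2 difference of -0.34 ± 0.14 did not pass the test (adjusted p = 0.114), except without E11.5 array 1 (-0.46, adjusted p = 0.0314). It shrank to -0.22 without E11.5 array 2 and likewise without E14.5 array 1. At 1423471_at the values were 324 and 405 against 184 and 142, and the difference of -1.11 ± 0.19 passed (adjusted p = 0.00235). The fall at this second probe set was present under all 11 alternatives.

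The change of Ptbp2 relative to Ptbp1 was read within each array, where the scaling factor has little part. With the brightest probe set of each gene, log2 Ptbp2 minus log2 Ptbp1 gave -0.14 and 0.26 at E11.5 and 0.51 and 0.70 at E14.5. The E14.5 arrays lay above, by 0.54 on average, with an exact two-sided permutation p of 0.333, the smallest that 2 against 2 arrays allow. With all probe sets of each gene averaged the values were 0.87 and 1.26 at E11.5 and 1.02 and 0.41 at E14.5. The change was then -0.35, with overlapping groups, so its direction depends on which probe sets are read. The zero of this scale has no meaning, since different probe sets differ in brightness for the same amount of RNA.

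**Figure D3:**
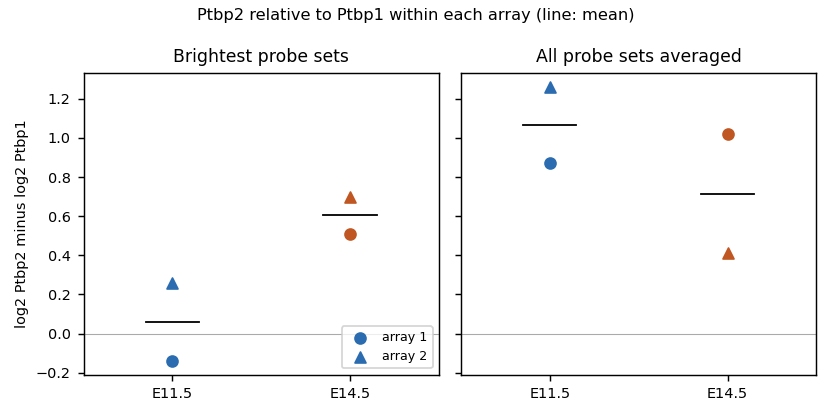
Log2 Ptbp2 minus log2 Ptbp1 on each array (circle, array 1; triangle, array 2; line, mean), with the brightest probe set of each gene on the left and all probe sets averaged on the right. On the left both E14.5 points (0.51 and 0.70) lie above both E11.5 points, and on the right the groups overlap.

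The members of the 5 families that are not in the set moved unevenly. Of 8 such genes 4 were lower at E14.5 (Celf5, Celf6, Rbfox3 and Celf2), none was higher and 4 did not pass. Over all genes tested 13.6% were lower and 14.3% higher. The median log2 difference was -0.33 for these 8 genes against 0.03 over all genes tested. Celf5, a brain Celf protein, fell from scaled signals of 1430 and 1326 to 218 and 128 (-2.95 ± 0.21, adjusted p = 1.11e-05). Rbfox3, the NeuN antigen of mature neurons, went from 431 and 493 to 119 and 129 (-1.80 ± 0.17). Its dimmer 1456149_at moved the same way but did not pass (-0.71 ± 0.25, adjusted p = 0.0672). Celf6 fell by 1.69 on the log2 scale, from a mean of 70.4 at E11.5 to 13.8 at E14.5. The E14.5 mean is under the filter of 27.3 and near the pseudocount of 12.8, so Celf6 was tested only through E11.5. Its call was lost without E11.5 array 2 (-1.60), and a larger pseudocount reduced the size to -1.02.

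The remaining relatives had small differences at their brightest probe sets. Celf2 gave -0.42 ± 0.12 (adjusted p = 0.0342), a call lost under 6 of 11 alternatives, among them leaving out E11.5 array 1 or either E14.5 array. Its dimmer tested probe sets did not pass, with 1423895_a_at (-0.24) and 1450069_a_at (-0.49) down and 1439777_at (0.32) up. Celf1, a decay factor of many tissues, had means of 3163 and 2687, a difference of -0.23 ± 0.12 that did not pass, except under quantile normalization (-0.37). Of its dimmer probe sets 1425932_a_at fell (means 203 and 99.3, -0.92 ± 0.22, adjusted p = 0.0135), a call lost without E11.5 array 2 (-0.66) and without the variance trend. Elavl1 (HuR), the Hu protein made in all tissues, read 1431 and 1388 at E11.5 and 1278 and 1343 at E14.5, and also did not pass (-0.10 ± 0.12). Of the 6 Elavl1 probe sets 2 fell all the same, 1452858_at (-1.56 ± 0.17) and 1445521_at (-1.57 ± 0.28). Nova2, the cortical relative of Nova1, had means of 530 and 521 (-0.02 ± 0.16, 95% interval -0.38 to 0.35). Ptbp3 had means of 288 and 394 (0.44 ± 0.16, adjusted p = 0.0755). Its dimmer 1424083_at went the other way, with means of 67.6 and 41.4 (-0.54 ± 0.30), and did not pass either.

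Of 14 other neural splicing regulators tested 3 were lower, 1 was higher and 10 did not pass, with a median of -0.08; these calls are about as frequent as over all genes tested (27.8%). Srrm4 (nSR100), the activator of neuronal microexons and a known antagonist of Ptbp1, fell from 399 and 357 to 68.0 and 66.4 (-2.29 ± 0.18, adjusted p = 2.16e-05). Among the muscleblind genes, Mbnl3 fell from means of 140 to 23.3 (-2.08 ± 0.27) while Mbnl2 rose from 281 to 592 (1.04 ± 0.15). The E14.5 mean of Mbnl3 is under the filter of 27.3, so Mbnl3 was tested only through E11.5. Khdrbs3 fell by 0.46 on the log2 scale, a call lost without E11.5 array 2, without either E14.5 array and without the variance trend. Qk, the glial RNA-binding protein Quaking, had means of 2821 and 3470 (0.30 ± 0.14) and passed only without E11.5 array 1 (0.47), while without E11.5 array 2 the difference was 0.14. Pcbp2 gave 0.24 ± 0.12 and did not pass.

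Messenger RNAs known from other work as targets of Hu proteins moved both ways. Of 8 tested 4 were lower and 2 higher, where 13.6% of all genes tested were lower and 14.3% higher. Gap43 fell from 2501 and 2259 to 497 and 655 (-2.03 ± 0.15). Mycn (-1.86 ± 0.28) and the microtubule protein gene Mapt (-1.67 ± 0.20) fell too. The immediate early gene Fos rose by 1.59 ± 0.21. Bdnf (0.24 ± 0.27) and Vegfa (-0.03 ± 0.25) did not pass. Gap43 and Mapt are also markers of neurons.

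Messenger RNAs with exons known to be under Ptbp control showed no common direction, with 3 of 8 lower, 3 higher and a median of -0.08. Calls in either direction made up 27.8% of all genes tested. Dlg4, the synaptic scaffold PSD-95, fell from means of 564 to 231 (-1.26 ± 0.20). The clathrin light chain gene Cltb rose by 1.06 ± 0.20, the tropomyosin gene Tpm1 by 0.91 ± 0.18 and the kinase gene Src by 0.63 ± 0.16. The calls of Tpm1 and Src were lost without the variance trend, and that of Src also without E11.5 array 2 (0.60) or E14.5 array 2 (0.57). Gabbr1 (-0.14 ± 0.15) and Pkm (-0.02 ± 0.12) did not pass. These probe sets read the amount of a transcript and not which exons it holds, so splicing itself was not measured.

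**Figure D4:**
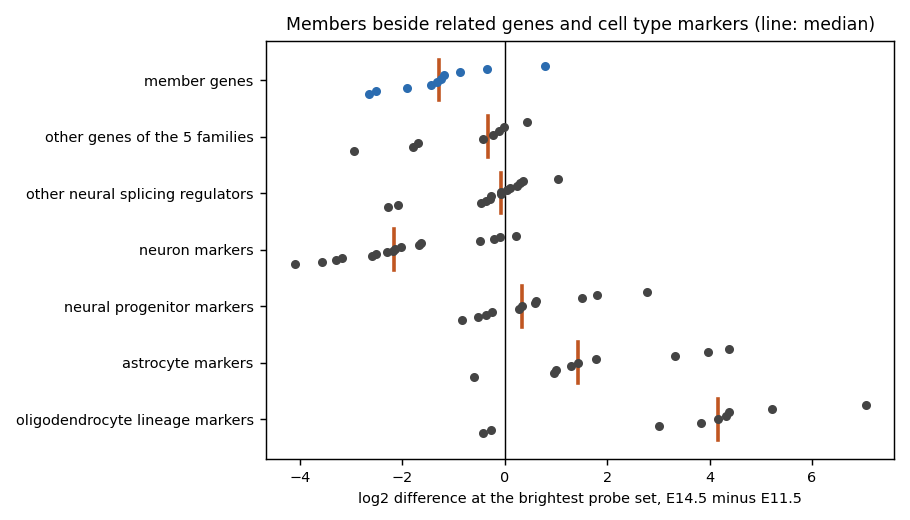
Log2 difference (E14.5 minus E11.5) at the brightest probe set of each tested gene, by list, with the list median as an orange line and member genes in blue. The member genes have a median of -1.29, between neuron markers (-2.17) and neural progenitor markers (0.34).

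Markers of cell types also differed between the groups, in both directions. For the counts below, the shares over all genes tested were 13.6% lower and 14.3% higher. Of 16 neuron markers 13 were lower, none was higher and 3 did not pass, with a median log2 difference of -2.17, and their summed signal went from 25620 to 26670 on the E11.5 arrays to 11030 to 11790 on the E14.5 arrays. Stmn2, Tubb3, Reln and Nefl led that list with differences of -3.19 or below, while the bright Map2 (0.22 ± 0.12) and Rtn1 (-0.10 ± 0.12) did not pass. At their brightest probe sets the Elavl, Celf and Rbfox members moved in the direction of these markers. Ptbp1 (-0.88) did so too, as did Ptbp2 (-0.34) without passing, and Nova1 moved in the other direction. The part of neuron number in these values was not tested. Neural progenitor markers had 5 of 11 members higher and 1 lower, with summed signals of 21510 to 23210 at E11.5 and 34760 to 36030 at E14.5. Pax6 was the lower one, and Sox2, Slc1a3, Hes5, Notch1 and Fabp7 were higher.

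Glial and other markers shifted as well. Astrocyte markers were higher for 8 of 9 tested genes and oligodendrocyte lineage markers for 7 of 9, none being lower in either list. Summed signals were at most 5457 at E11.5 and at least 12840 at E14.5 for the first, and at most 1506 and at least 19640 for the second. Microglia and macrophage markers were higher for 7 of 8 tested genes (212 to 278 summed at E11.5, 1634 to 1679 at E14.5). Of 8 endothelial and pericyte genes 4 were tested and 1 was higher. Only 2 of 6 erythroid genes were tested, and they were lower. Of the meningeal list 3 of 6 tested were lower. The filter takes the mean over both groups, so some genes were tested only through the group where they are high. Among them were C1qa (means 6.17 and 229), Plvap (10.0 and 91.2) and Hba-x (51.4 and 8.87). These counts therefore do not speak for whole lists. The part of these cells in the results was not tested.

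Within the groups the member probe sets were not centred alike on both arrays. E11.5 array 2 read above E11.5 array 1 at 25 of the 30, with a median log2 difference of 0.26, against a median of 0.00 over all probe sets tested. At E14.5 array 2 lay below array 1 at 15 of 30. Leaving out E11.5 array 2 gave 19 lower member probe sets in place of 22, and leaving out any other array gave 22 or 23.

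The genes whose profile over the 4 arrays lay nearest to each member were sought among 12273 other genes, by the Euclidean distance between log2 profiles centred on their own means. With 4 arrays in 2 groups the distance mostly reads the size of the difference. For Celf4 they were Myt1l, Apela and Ina (distances 0.12, 0.12 and 0.16), and for Rbfox1 they were L1cam, Ina and Gli3 (0.06, 0.12 and 0.12). Ina is a neuron marker of the fixed list, and the other nearest genes named here are on no marker list. For Elavl3 they were Tspan18, Srgap1 and Fbn2, for Elavl4 Pawr, Gp1bb and Sh3bp5, and for Elavl2 Pcyt1b, Peg3 and Pcp4l1, with distances between 0.04 and 0.09. Rbfox2 lay nearest to Mpp3, Pgm2l1 and Sh3bp5, and Celf3 to Sorbs2, Cxadr and Efna5 at larger distances of 0.31 to 0.35. Nova1 lay nearest to Rassf3, Nhlrc1 and Cables1, Ptbp1 to Fbxl2, Pimreg and Jpt1, and Ptbp2 to Coil, Bahcc1 and Dusp7.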

How the data were processed

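The authors deposited linear intensities, 1 for each probe set on each array, made with GCOS per the submitters' processing notes. The GCOS version is not given in the sources used here. The arrays' 2% trimmed means differed by up to 2.43-fold (103 and 154 at E14.5, 187 and 252 at E11.5). Each array was multiplied by 1 factor (0.691 to 1.68) so that all share a trimmed mean of 174. Only probe sets whose mean reached the 40th percentile (27.3) were tested, and a pseudocount of 12.8 (the 25th percentile) was added before log2. Control probe sets (64) were set aside. The platform annotation names 1 gene for 34945 probe sets, several for 932 and none for 9160.

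Differences were tested two-sided with limma 3.58.1 in R 4.3.3 (lmFit, eBayes with variance trend, 2 residual and 7.99 prior degrees of freedom) and Benjamini-Hochberg adjustment over 27022 probe sets. In simulated arrays 100 changes of each size were set, all at probe sets above the median signal. The noise was independent and followed the average spread at each signal. There 98% of changes of 1 on the log2 scale and all of 2 were called, with 13 false calls. Changes at dim probe sets and spread particular to a probe set were left out, so these rates need not hold for the real arrays. The number of arrays limits precision. Log2 signals correlated at 0.975 and 0.969 within groups and 0.885 to 0.909 between them, across probe sets.

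Named were all member probe sets, the other genes of the families and 3 nearest profiles per member. Of each further list up to 4 called genes by size and 2 not called by signal were named. The dimmer probe sets of Elavl1, Celf1, Celf2, Rbfox3 and Ptbp3 were named after their values were seen, as were the progenitor markers. Members and lists were chosen with earlier results of these data known.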

Additional observations from a re-analysis of the deposited data

How the results depend on the processing

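Quantile normalization, scaling to a common median, smaller and larger pseudocounts, no filter, no variance trend, the replicate number as a block and leaving out each array were tried. Lower member probe sets numbered 19 to 23 over the arrays left out and 20 to 23 over the other settings. Without the variance trend, higher probe sets numbered 1919 and lower ones 2097 in place of 3012 and 3396, and no member was higher in limma (0 in place of 1, and 1 at an unadjusted p under 0.05). The change of Ptbp2 relative to Ptbp1 turned to -0.35 with probe sets averaged and ran from 0.34 to 0.743 with 1 array left out. Signs also turned for dim or near-zero differences. Elavl2 1433052_at gave -0.0362 (quantile), -0.0213 (median scaling) and -0.0959 to 0.114 with 1 array left out. With 1 array left out, Ptbp1 1458284_at ran from -0.233 to 0.148, Ptbp1 1450443_at from -0.827 to 0.432, Nova2 from -0.195 to 0.161, Vegfa from -0.357 to 0.307, Bdnf from -0.0421 to 0.526 and Pkm from -0.0908 to 0.0484. Under quantile normalization Nova2 gave 0.018 and Vegfa 0.0335. The cause was not tested. With 1 array left out, the lone array of a group is assumed to vary like the other group, and Rbfox1 1438217_at fell under the filter without either E11.5 array.

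The deviations of same-numbered arrays from their group means were almost uncorrelated (0.00409). With so few arrays this value cannot show whether same-numbered arrays shared a batch or preparation. The labels do not say so either. With the replicate number as a block, 3312 probe sets were higher and 3861 lower, 23 member probe sets were lower, and Rbfox1 1447735_x_at was the only member probe set whose call changed.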
